A study of Homo sapiens with 6 samples.

Results

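The SLC16 family encodes membrane carriers, most of which are known as monocarboxylate transporters (MCTs). It was examined here in RNA from MDA-MB-453, a long-established cell line from a HER2+ breast cancer, after siRNA against the MAP kinase phosphatase gene *DUSP6*. The members were the rows whose gene symbol was *SLC16A1*, *SLC16A3*, *SLC16A5*, *SLC16A6*, *SLC16A7*, *SLC16A9*, *SLC16A10*, *SLC16A13* or *SLC16A14*, which made 9 of the 22807 genes in the table. The relatives *SLC16A4*, *SLC16A8*, *SLC16A11* and *SLC16A12* are given for comparison, which made 13 family genes reported here. *SLC16A6* was picked because it fell in these same libraries, so its values are a description and carry no test.

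The cells were grown in RPMI medium with serum, and the labels call every library wild type in genotype, so by their labels the groups differ in the siRNA alone. One group of 3 libraries came from cells given scrambled siRNA, and the other group of 3 libraries came from cells given *DUSP6* siRNA. Each group used 3 different siRNAs, transfected transiently with a lipid reagent. Which siRNA went into which library, and the time from transfection to RNA harvest, are not given in the sources used here. Libraries were made from whole-culture RNA with a stranded mRNA kit. The labels do not say whether libraries of a group came from separate cultures. The p-values therefore measure only the spread between these libraries, which may be technical and may include differences between the siRNAs.

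MCTs move small organic acids across the membrane. MCT1, MCT2, MCT3 and MCT4, the products of *SLC16A1*, *SLC16A7*, *SLC16A8* and *SLC16A3*, are the family's proton-coupled lactate, pyruvate and ketone body carriers, and they need a glycoprotein partner, basigin or embigin, to reach the cell surface. Tumor cells that run on glycolysis often export lactate through MCT1 and MCT4. Some other relatives carry different cargo. The *SLC16A10* product carries aromatic amino acids, while the *SLC16A6* product, also called MCT7, is known as a ketone body and taurine carrier.

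Library depth ranged from 45546981 to 85729785 assigned reads, and 1 read was worth 0.0121 to 0.0202 on the normalised scale, which is the read count per unit of TMM-scaled library size (CPM). *DUSP6* itself stood at 209, 110 and 114 normalised counts in the scrambled libraries and at 39.4, 24.5 and 35.2 in the *DUSP6* siRNA libraries. The groups did not overlap (log2 fold change −2.05, SE 0.25, limma adjusted p = 3.09e-04). All 9 luminal markers were present at a mean of 1 or more, with sums of 4262 to 5638 in the scrambled and 3105 to 3304 in the *DUSP6* siRNA libraries. Of 9 measured markers of leukocytes, fibroblasts, endothelium and basal cells, 2 reached a mean of 1, *CD68* and *COL1A1*. Without *COL1A1* these markers summed to 5.71 to 6.74 in the scrambled and 4.48 to 6.81 in the *DUSP6* siRNA libraries, with *CD68* making up most of the sum, and the defining markers *PTPRC* and *COL3A1* were near 0. Below a mean of 1, the basal marker *KRT14* went from 0.0411 ± 0.0145 to 0.357 ± 0.0665 without overlap (8 against 68 reads). *PTPRC* was also higher without overlap (4 against 10 reads), and *KRT5*, *VWF* and *PECAM1* were lower without overlap. Of all genes with a mean of at least 1, 31.1% were lower and 26.7% higher without overlap. *COL1A1* rose from 92.2 ± 12.2 to 173 ± 16.7 (SD, n = 3 in each group). All 10 interferon-induced genes listed rose, with a summed level of 160 to 215 in the scrambled and 4189 to 4781 in the *DUSP6* siRNA libraries. Scrambled replicate 3 was the highest scrambled library for all of them except *MX1*. For example, *IFIT1* stood at 4.58, 3.81 and 12.6 in the scrambled libraries. The part of these shifts in the SLC16 values was not tested.

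Among the 13 genes, *SLC16A6* dominated the scrambled cells. Levels of different genes were compared after dividing normalised counts by the length of the canonical transcript in kilobases. On that per-kilobase scale *SLC16A6* stood at 147 ± 49.9 in the scrambled libraries, *SLC16A5* at 14.9 ± 3.38 and *SLC16A14* at 11.5 ± 0.568 (SD, n = 3). The classical lactate carriers were lower, with *SLC16A1* at 3.60 ± 0.939 and *SLC16A3* at 0.904 ± 0.267 per kilobase. *SLC16A13* lay between those lactate carrier genes at 2.04 ± 0.331 per kilobase, and *SLC16A7*, *SLC16A9* and *SLC16A10* lay at 0.104 or below. Several neighbours in the order were not separated: the scrambled libraries overlapped between *SLC16A5* and *SLC16A14*, between *SLC16A13* and *SLC16A8*, between *SLC16A8* and *SLC16A3*, and between *SLC16A3* and *SLC16A4*. When the length of all annotated exons was used instead, *SLC16A14* moved above *SLC16A5* and *SLC16A4* above *SLC16A3*. By normalised counts without length, *SLC16A6* ranked 163 among all 22807 genes in the scrambled mean.

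**Figure D1:**
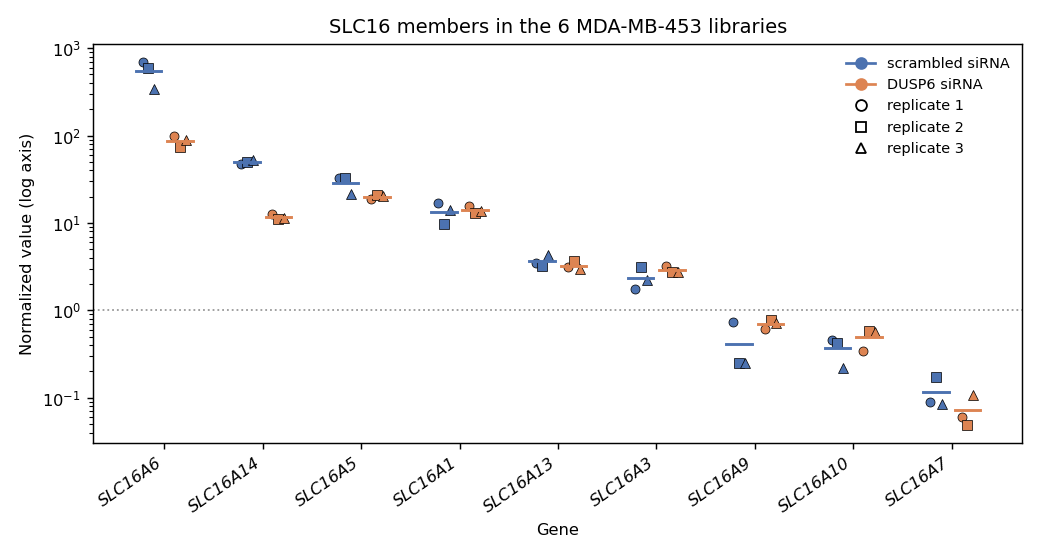
Normalised counts (log axis) of the 9 SLC16 members in each of the 3 scrambled and 3 *DUSP6* siRNA libraries, with 1 point for each library a bar for the group mean and a dotted line at 1, the filter on the mean. *SLC16A6* and *SLC16A14* separate the groups widely, while *SLC16A1*, *SLC16A3* and *SLC16A13* overlap between groups.

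*SLC16A6* (Entrez 9120) lies on the minus strand of chromosome 17, at chr17:68267026-68291267 in GRCh38, and its canonical transcript of 3691 bases in 6 exons encodes 523 residues. It measured 693, 599 and 337 normalised counts in the scrambled libraries and 99.0, 73.9 and 89.9 in the *DUSP6* siRNA libraries. The groups did not overlap, and the lowest scrambled library, replicate 3, was still well above the highest *DUSP6* siRNA library. The mean went from 543 ± 184 to 87.6 ± 12.7 (SD, n = 3), so 16.1% of the scrambled level was left. As a difference on the log2(value + 1) scale this was −2.56, and it ranked 12 among the falls of all 12862 genes tested, that is, all genes with a mean of at least 1. In bulk RNA, fewer cells carrying a transcript and less transcript in each cell cannot be told apart. Because scrambled replicate 3 was low, the difference was −2.87 without it and −2.36 without scrambled replicate 1.

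The number of reads behind *SLC16A6* was large, with 105818 in the scrambled and 16763 in the *DUSP6* siRNA libraries. Some of them may belong elsewhere. The pseudogene *SLC16A6P1*, on the same chromosome at chr17:64953683-64956546, is 97.2% identical to it over 28.7% of the transcript and had no row in the table, so the *SLC16A6* value is uncertain in that stretch. On the opposite strand, the sulfatase gene *ARSG* shares 3.55% of the exonic bases of *SLC16A6*. The authors state default settings for assigning reads to genes and do not name strand. *ARSG* stood at 47.3 ± 6.77 in the scrambled and 51.3 ± 4.44 in the *DUSP6* siRNA libraries (log2 fold change 0.12, limma adjusted p = 0.439). Of the flanking genes, *AMZ2* went from 195 ± 37.4 to 175 ± 12.4 (−0.14, adjusted p = 0.403), and *WIPI1*, an autophagy gene, rose from 57.0 ± 9.80 to 82.3 ± 16.2 (0.52, adjusted p = 0.0283) with overlapping groups.

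The genes whose profile over the 6 libraries was most like that of *SLC16A6*, by Pearson correlation of the log2 values, were *KIF23* (r = 0.9994), *QSER1* (0.9991), *SLC7A8* (0.9989), *ANKRD17* (0.9988) and *DGUOK-AS1* (0.9988). These values describe 6 points in 2 groups that share library and depth, and any gene that differed between the groups can score high. *SLC7A8*, which encodes the light chain of the neutral amino acid exchanger LAT2, measured 198, 192 and 117 normalised counts in the scrambled and 46.0, 38.9 and 41.8 in the *DUSP6* siRNA libraries. Like *SLC16A6*, it had its lowest scrambled value in replicate 3. Within the family, the correlation with *SLC16A6* was 0.96 for *SLC16A14*, 0.88 for *SLC16A5* and −0.82 for *SLC16A8*.

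*SLC16A14* (Entrez 151473; chr2:230034982-230068993, minus strand) encodes a relative of 510 residues that has been little studied. It measured 47.4, 49.7 and 52.3 normalised counts in the scrambled libraries and 12.6, 11.2 and 11.5 in the *DUSP6* siRNA libraries. Both groups were tight and far apart. The mean fell from 49.8 ± 2.45 to 11.8 ± 0.713 (SD, n = 3), with a log2 fold change of −1.99 (SE 0.10, 95% interval −2.21 to −1.77, limma adjusted p = 2.56e-06). Leaving out any 1 library gave values from −2.03 to −1.95. Scrambled replicate 3 was the highest scrambled library for *SLC16A14* and the lowest for *SLC16A6*. A pseudogene without a row in the table, *SLC16A14P1*, is 89.9% identical to it over 26.0% of the transcript.

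The promoter of *SLC16A14* is shown because this gene had the largest fall that could be tested among the members. The window is the 250 bases before its start in RefSeq on GRCh38.p14, chr2:230068925-230069174, minus strand, written 5′ to 3′ with each CG pair in capitals. In GENCODE the gene starts further upstream, at chr2:230068993, so the last bases of this window lie inside the gene as annotated there. RefSeq promoter entries matched 5 of the 9 members and 9 of the 13 family genes reported.
SLC16A14 promoter: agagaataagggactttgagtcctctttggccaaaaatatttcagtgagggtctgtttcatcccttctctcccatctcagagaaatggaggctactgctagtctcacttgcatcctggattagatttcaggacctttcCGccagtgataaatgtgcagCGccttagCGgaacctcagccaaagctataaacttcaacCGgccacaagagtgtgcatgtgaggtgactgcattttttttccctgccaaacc
This window held 4 CG pairs, beside a median of 11 over 35116 promoter windows of the same length, and 34.3% of those windows held 4 or fewer. Its GC content was 46.8%, beside a median of 58.0%. On both strands it was searched for the AP-1 motif TGANTCA, the ETS motif CCGGAA and the E-box CACGTG, which 6.57%, 14.5% and 6.34% of all windows held, and none of these letters was found in it. Among the other family windows, an E-box was found in 1 of 2 windows of *SLC16A9* and in that of *SLC16A11*, and the ETS motif in 1 of 5 windows of *SLC16A3*.

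*SLC16A5* (Entrez 9121; chr17:75087727-75106162, plus strand) encodes a carrier known for transporting bumetanide and other drugs. It measured 32.9, 32.4 and 21.3 normalised counts in the scrambled libraries and 18.9, 20.7 and 20.2 in the *DUSP6* siRNA libraries. Scrambled replicate 3 was close to the *DUSP6* siRNA libraries, though the groups did not overlap. The mean went from 28.9 ± 6.55 to 19.9 ± 0.934, 68.9% of the scrambled level, and the fall passed the test (log2 fold change −0.49, SE 0.16, limma adjusted p = 0.0342). The call was lost without scrambled replicate 1 (adjusted p = 0.107), scrambled replicate 2 (0.101), or *DUSP6* siRNA replicate 1 (0.103), 2 (0.0851) or 3 (0.0830), and it was lost with no filter on low values (0.0707). Without scrambled replicate 3 the log2 fold change was −0.69 (adjusted p = 6.56e-04).

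Of the 8 members other than *SLC16A6*, 5 passed the filter of a mean of at least 1, and 2 of these were called lower and 0 higher. Over all 12862 genes tested, 24.7% were called lower and 19.7% higher by the same rule, an adjusted p under 0.05, or 44.5% in either direction. The edgeR test also called 2 of the 5 lower and 0 higher, beside 23.1% and 21.5% of all genes. By level alone, 2 of the 5 had every *DUSP6* siRNA library below every scrambled one and 0 had the opposite, beside 31.1% and 26.7% of all genes. *SLC16A14* was the 1 gene of the 5 that was called with a log2 fold change of −1 or below, which held for 4.22% of all genes. The members were chosen with these results known, so nothing is read from their count. The median log2 fold change of the 5 was −0.13, beside −0.01 over all genes tested.

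**Figure D2:**
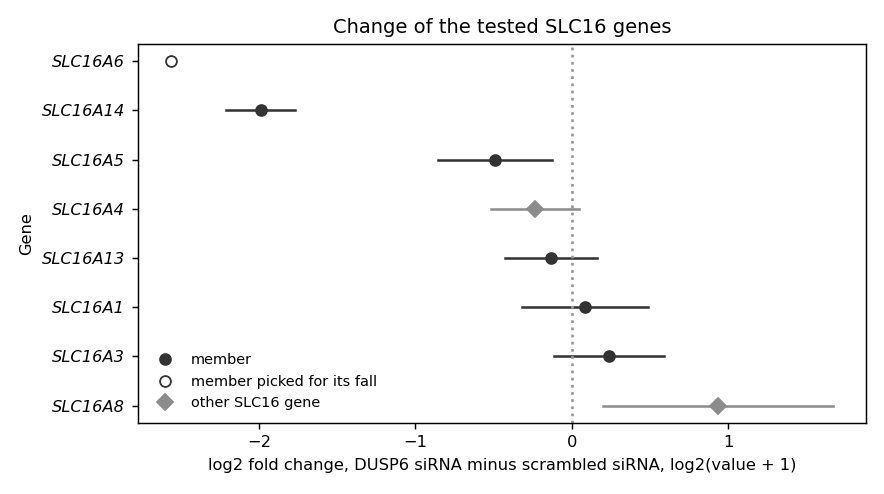
Log2 fold change (*DUSP6* siRNA minus scrambled, on the log2(value + 1) scale) of each SLC16 gene with a mean of at least 1, with the 95% limma interval as a line except for *SLC16A6*, which has no test. *SLC16A6* at −2.56 and *SLC16A14* at −1.99 stand at the low end, and *SLC16A8* at 0.94 at the high end.

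The main lactate carriers of the plasma membrane were not called lower. *SLC16A1* (Entrez 6566; chr1:112911847-112957593, minus strand), which encodes MCT1, the widely expressed lactate and ketone body carrier, measured 16.8, 9.75 and 14.0 normalised counts in the scrambled libraries and 15.8, 12.9 and 13.7 in the *DUSP6* siRNA libraries. The groups overlapped (log2 fold change 0.09, SE 0.18, 95% interval −0.32 to 0.49, limma adjusted p = 0.716). The sign depended on 1 library: without scrambled replicate 2 the value was −0.11 (adjusted p = 0.507).

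*SLC16A3* (Entrez 9123; chr17:82217934-82261129, plus strand) encodes MCT4, the lactate exporter of strongly glycolytic cells. It measured 1.74, 3.10 and 2.21 normalised counts in the scrambled libraries and 3.24, 2.74 and 2.75 in the *DUSP6* siRNA libraries. The groups overlapped, since scrambled replicate 2 lay above 2 of the *DUSP6* siRNA libraries (log2 fold change 0.24, 95% interval −0.11 to 0.59, limma adjusted p = 0.236). Without scrambled replicate 2 it was called higher, at 0.40 (adjusted p = 0.0415). On the opposite strand, *CSNK1D* covers 5.22% of the exonic bases of *SLC16A3*. The authors do not name strand for assigning reads, so the *SLC16A3* value is uncertain in that stretch.

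*SLC16A7* (Entrez 9194), which encodes the high-affinity pyruvate and lactate carrier MCT2, was close to undetected. It had 6, 9 and 7 reads in the scrambled libraries and 3, 4 and 7 in the *DUSP6* siRNA libraries. A change was not detectable at this depth: the ratio of the pooled normalised reads was 0.657, with a 95% interval of 0.311 to 1.34 that covers counting error only.

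The partner proteins differed from each other. *EMB*, which encodes embigin, a partner of MCT2 in particular, measured 39.6, 29.9 and 31.1 normalised counts in the scrambled libraries and 20.8, 23.0 and 22.0 in the *DUSP6* siRNA libraries. The groups did not overlap, and *EMB* fell from 33.6 ± 5.30 to 21.9 ± 1.12 (log2 fold change −0.58, SE 0.12, limma adjusted p = 0.00512). *BSG*, which encodes basigin, the usual partner of MCT1 and MCT4, measured 313, 295 and 315 in the scrambled and 361, 372 and 327 in the *DUSP6* siRNA libraries. Every *DUSP6* siRNA library was above every scrambled one for *BSG*, but the difference did not pass the test (0.20, adjusted p = 0.0968), while with quantile normalization it did (0.44, adjusted p = 0.00258). *NPTN*, which encodes neuroplastin, a relative of both, had a log2 fold change of −0.06 (adjusted p = 0.667), which was 0.02 without scrambled replicate 3.

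*SLC16A13* (Entrez 201232; chr17:7036015-7040117, plus strand) encodes a lactate carrier linked to liver metabolism. It measured 3.51, 3.18 and 4.34 normalised counts in the scrambled libraries and 3.15, 3.66 and 2.97 in the *DUSP6* siRNA libraries. The groups overlapped (log2 fold change −0.13, SE 0.13, 95% interval −0.42 to 0.16, limma adjusted p = 0.436).

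*SLC16A9* (Entrez 220963) and *SLC16A10* (Entrez 117247) encode a carnitine and creatine carrier and an aromatic amino acid carrier, and both were below a mean of 1. *SLC16A9* had 49, 13 and 21 reads in the scrambled libraries and 30, 63 and 46 in the *DUSP6* siRNA libraries. Scrambled replicate 1 was as high as the *DUSP6* siRNA libraries, at 0.729 normalised counts beside 0.607, 0.770 and 0.711. *SLC16A10* had 31, 22 and 18 reads in the scrambled and 17, 47 and 37 in the *DUSP6* siRNA libraries, again with overlap on the normalised scale. The pooled ratios were 1.73 (95% interval 1.31 to 2.30) and 1.47 (1.07 to 2.02), intervals that cover counting error only and leave out the spread between libraries. With the filter removed, limma gave adjusted p = 0.149 for *SLC16A9* and 0.337 for *SLC16A10*.

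Among the relatives outside the member list, *SLC16A8*, which encodes MCT3, known from the retinal pigment epithelium, measured 2.68, 1.90 and 7.22 normalised counts in the scrambled and 8.78, 6.84 and 7.03 in the *DUSP6* siRNA libraries. Here scrambled replicate 3 sat inside the range of the *DUSP6* siRNA group. *SLC16A8* was called higher (log2 fold change 0.94, SE 0.33, limma adjusted p = 0.0424). The call was lost in the edgeR test (adjusted p = 0.0874), with quantile normalization (0.0525), with no filter (0.108), and on leaving out scrambled replicate 1 (0.135), scrambled replicate 2 (0.135), or *DUSP6* siRNA replicate 1 (0.117), 2 (0.0994) or 3 (0.0776). Without scrambled replicate 3 it stood at 1.38.

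*SLC16A4*, whose cargo is poorly known, measured 1.44, 2.07 and 1.61 normalised counts in the scrambled and 1.42, 1.14 and 1.33 in the *DUSP6* siRNA libraries. The groups were separate but close (−0.24, limma adjusted p = 0.150), and the gene was called lower with quantile normalization (−0.36, adjusted p = 0.0346). *SLC16A12*, a creatine carrier gene, had 1 read in each scrambled library and 10, 16 and 11 reads in the *DUSP6* siRNA libraries. That made 3 against 37 reads, a ratio of 12.7 with a 95% interval of 4.03 to 64.6 for counting error only, and limma without the filter gave adjusted p = 3.92e-04. *SLC16A11* had 16 reads in either group.

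The makeup of the family's transcripts is given as a description. *SLC16A6* was picked for its fall and held most of the scrambled sum, so a shift in the shares followed from that pick. Summed per kilobase over the 13 family genes, the level was 225, 198 and 125 in the scrambled libraries and 51.3, 43.6 and 47.7 in the *DUSP6* siRNA libraries. Without *SLC16A6*, whose fall chose it, the sum was 37.0, 35.6 and 34.0 in the scrambled libraries. It was 24.5, 23.6 and 23.4 in the *DUSP6* siRNA libraries, without overlap. Of all genes tested singly, 31.1% were lower without overlap. The lower sum lay mainly in *SLC16A14*, from 11.5 to 2.73 per kilobase, and *SLC16A5*, from 14.9 to 10.3. *SLC16A1*, *SLC16A3*, *SLC16A8*, *SLC16A9*, *SLC16A10* and *SLC16A12* had higher means with *DUSP6* siRNA, with *SLC16A8* going from 1.72 to 3.29. *SLC16A6* made up 79.5% ± 5.75 of the sum over the 13 genes in the scrambled libraries and 49.8% ± 3.36 in the *DUSP6* siRNA libraries (SD, n = 3). The share of *SLC16A5* was 8.25% ± 0.636 and 21.7% ± 2.75, and that of *SLC16A1* was 2.09% ± 0.836 and 7.91% ± 0.277. A share of a sum rises when another part of it falls, so these percentages describe makeup and not the change of single genes. *SLC16A14* was 3 in the per-kilobase order of the scrambled libraries and 5 in that of the *DUSP6* siRNA libraries, below *SLC16A1* and *SLC16A8*. *SLC16A6* was the highest of the 13 genes in both groups, at 147 ± 49.9 and 23.7 ± 3.44 per kilobase.

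**Figure D3:**
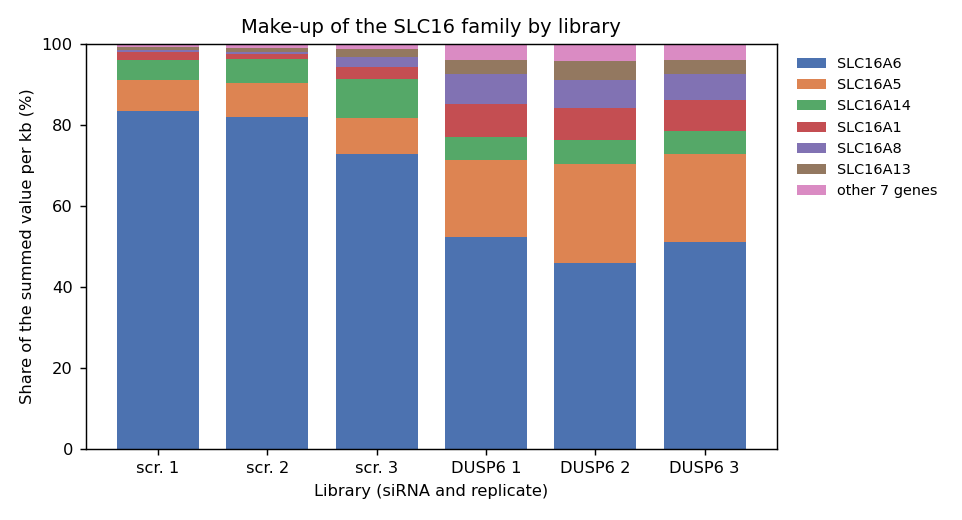
Share (percent) of the summed per-kilobase level held by each of the 13 SLC16 genes, stacked for each of the 6 libraries, with the 7 lowest genes merged. *SLC16A6* takes a mean of 79.5% in the scrambled and 49.8% in the *DUSP6* siRNA libraries, a shift that follows from its being picked for its fall.

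Spread within the scrambled group followed different patterns in different genes. On the log2(value + 1) scale, scrambled replicate 3 lay below its group mean by −0.62 for *SLC16A6* and −0.39 for *SLC16A5*, and above it by 0.89 for *SLC16A8*. For each of these genes that library deviated toward the *DUSP6* siRNA group. *SLC16A14* did not follow, with a deviation of 0.07 in that library. *DUSP6* was highest in scrambled replicate 1, by 0.59, with replicates 2 and 3 at −0.32 and −0.27. The *DUSP6* siRNA libraries were closer together than the scrambled ones on this scale for *SLC16A6* and *SLC16A5*.

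**Figure D4:**
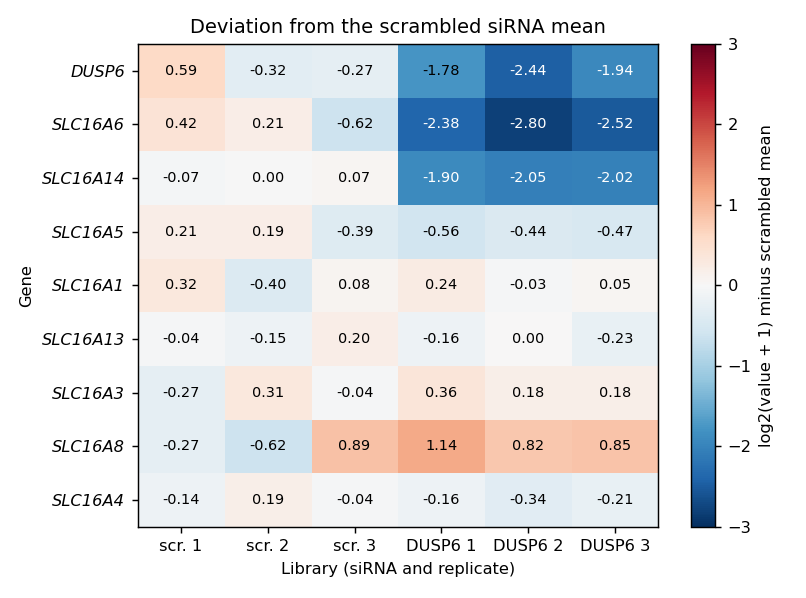
Deviation of each library from the scrambled mean on the log2(value + 1) scale for *DUSP6* and the SLC16 genes with a mean of at least 1, as a colour and a printed value. Scrambled replicate 3 deviates by −0.62 for *SLC16A6* and by 0.89 for *SLC16A8*.

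The genes that work around these carriers were counted from lists chosen by function. Of the 18 genes of lactate and pyruvate use, 16 were tested, and 8 were called lower and 0 higher, beside 24.7% and 19.7% of all genes tested. Their median log2 fold change was −0.31, beside −0.01 over all genes tested. *MPC1* (0.20) and *PDHX* (0.18) lay above 0 without passing the test. For both, every *DUSP6* siRNA library was above every scrambled one, as for 26.7% of all genes tested. The 8 genes called lower were without overlap in the other direction, as for 31.1% of all genes tested. The largest falls among those called were in *PDK3*, a kinase that switches off pyruvate dehydrogenase (29.9 ± 3.67 to 15.3 ± 0.622, −0.92, limma adjusted p = 3.18e-04), *DLAT*, the E2 subunit of that same enzyme (103 ± 14.6 to 57.4 ± 2.07, −0.82, adjusted p = 5.92e-04), and *PDK2* (−0.69, adjusted p = 0.00537). The list thus held falls in both the enzyme and its inhibitors. *LDHA*, the muscle-type lactate dehydrogenase, measured 1324, 371 and 1167 normalised counts in the scrambled and 522, 459 and 501 in the *DUSP6* siRNA libraries. Scrambled replicate 2 lay below all the *DUSP6* siRNA libraries for *LDHA*, and the difference did not pass the test (−0.75, adjusted p = 0.153). *LDHB*, the heart-type subunit gene, was close to undetected, with 2 reads in the scrambled and 1 in the *DUSP6* siRNA libraries.

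Of the 5 genes reported here from the ketone body list, 3 were called lower and 2 higher, beside 24.7% and 19.7% of all genes tested, and the median log2 fold change was −0.42. The list is not reported whole, and it includes *SLC25A20*, a carrier of fatty acid import into mitochondria and not a ketone body enzyme. *OXCT1*, the enzyme that activates acetoacetate for use as fuel, fell from 119 ± 14.4 to 60.5 ± 0.624 (−0.96, limma adjusted p = 1.65e-04), and *BDH1*, the mitochondrial hydroxybutyrate dehydrogenase, fell from 186 ± 25.4 to 122 ± 5.15 (−0.59). *ACAT1*, the thiolase of ketone body use, also fell (−0.42). *BDH2*, the cytosolic hydroxybutyrate dehydrogenase, rose from 4.46 ± 0.167 to 8.16 ± 0.935 (0.74, adjusted p = 0.00105), and *SLC25A20*, the carnitine-acylcarnitine carrier, rose from 10.4 ± 1.34 to 15.1 ± 1.96 (0.49, adjusted p = 0.0150).

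Of 10 genes of thyroid hormone and aromatic amino acid transport and action, 6 were tested, and 3 were called lower and 1 higher, beside 24.7% and 19.7% of all genes tested, with a median of −0.18. *SLC7A8* fell (−1.94, limma adjusted p = 8.79e-05), and so did the thyroid hormone receptor genes *THRB* (88.2 ± 7.33 to 46.7 ± 2.46, −0.90) and *THRA* (−0.42). *SLC3A2*, the heavy chain that pairs with the *SLC7A8* product, rose from 202 ± 33.0 to 383 ± 34.0 (0.93, adjusted p = 5.60e-04). Of 10 carnitine, creatine and taurine genes, 9 were tested, and 3 were called lower and 3 higher, beside the same 24.7% and 19.7%, with a median of −0.11. The mitochondrial creatine kinase gene *CKMT1A* fell (−1.06, adjusted p = 5.30e-05), though its near-identical copy *CKMT1B* can share its reads, and *GAMT* (−0.37) and *CKB* (−0.34) also fell. The genes that rose were the carnitine carrier *SLC22A5* (0.65), the creatine carrier *SLC6A8* (0.64) and *SLC22A4* (0.60). *SLC6A6*, the main taurine carrier gene, went from 75.7 ± 2.50 to 70.8 ± 12.3 (−0.11, adjusted p = 0.514) with overlapping groups. Of the sodium-coupled carriers, *SLC5A6* had a log2 fold change of −0.07 (adjusted p = 0.716), and *SLC5A8* and *SLC5A12* were not analysed here.

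**Figure D5:**
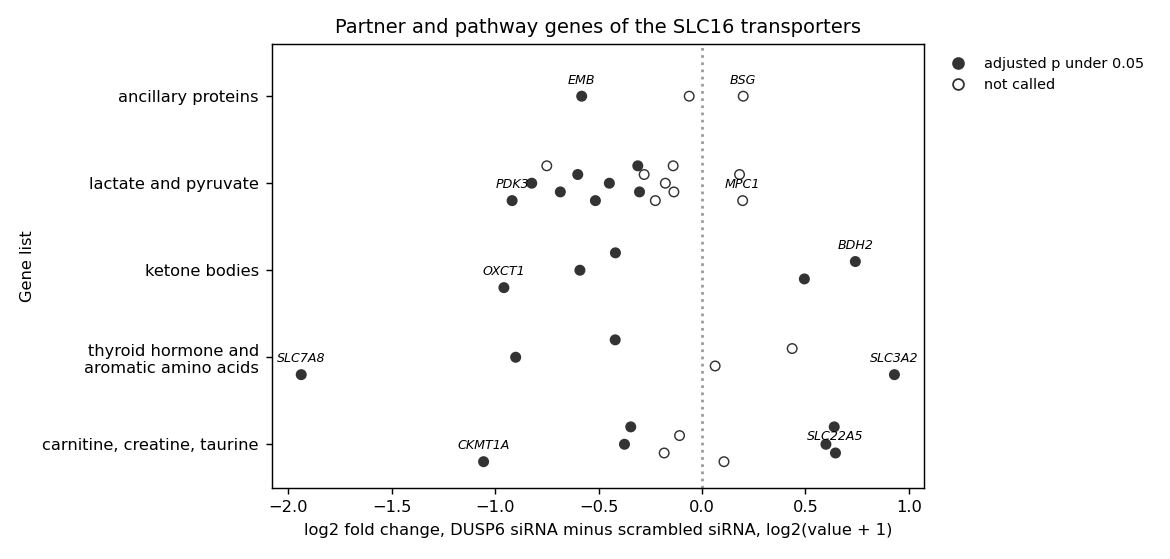
Log2 fold change (*DUSP6* siRNA minus scrambled, on the log2(value + 1) scale) of the tested genes of 5 lists around the SLC16 carriers, with filled points for genes at an adjusted p under 0.05. Lactate and pyruvate genes lie mostly below 0, while the genes of the ketone body list, which includes the carnitine-acylcarnitine carrier *SLC25A20*, split into 3 below and 2 above.

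From the annotated coding sequences, the closest pair was *SLC16A1* and *SLC16A7*, at 61.1% identity, followed by *SLC16A3* and *SLC16A8* at 60.0% and *SLC16A11* and *SLC16A13* at 47.6%. *SLC16A6* was closest to *SLC16A13*, at 36.2%, and *SLC16A14* to *SLC16A9*, at 34.7%. *SLC16A6* and *SLC16A14* shared 27.9% with each other. Within the pair of *SLC16A8* and *SLC16A3*, the log2 fold change was 0.94 and 0.24 by limma, and 0.96 and 0.35 by edgeR. The groups overlapped for both genes, and the *SLC16A8* call was lost in the edgeR test.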

How the data were processed

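Bulk RNA-seq of 6 libraries was used, 3 for each siRNA, grouped by their titles. The authors aligned reads to hg38 with Rsubread and assigned them to RefSeq genes at default settings. The deposited values are a signal per gene, CPM on TMM-scaled library sizes (edgeR), with a largest difference of 2.6e-15 in scaling factor. Whole reads were recovered for 100% of values (tolerance 0.001). Genes with a mean of at least 1 were tested on log2(value + 1) with limma 3.58.1 (trended eBayes, R 4.3.3, two-sided) and Benjamini-Hochberg adjustment over 12862 genes, called at 0.05. Recovered reads were tested with edgeR 4.0.16 (quasi-likelihood) as an alternative. The added 1 draws the limma fold changes of genes with low values toward 0, for example *SLC16A4* at −0.24 beside −0.37 by edgeR. Fits were tested on simulated data. Lengths, positions, exons and coding sequences came from GENCODE 44, pseudogene matches from blastn 2.17.0, protein alignments from Biopython 1.88. The members and lists were chosen with earlier results of these data known. All members, *DUSP6* and 4 other SLC16 genes are named, and up to 3 called genes of each list in each direction. Genes named outside this rule, among them *LDHA*, *LDHB*, *SLC6A6*, the markers and the genes next to or overlapping *SLC16A6* and *SLC16A3*, were chosen after their values were seen. Some genes of the family and of the ketone body list are not reported here, and sums, orders and counts leave them out.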

Additional observations from a re-analysis of the deposited data

How the results depend on the processing

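The numbers of the replicates in the labels did not pair the libraries (correlations of deviations 0.00500, 0.0868 and −0.0764). With a replicate block, 3096 genes were called lower and 2495 higher, while the fold changes, −2.05 for *DUSP6*, cannot move under a block in this balanced design. Over all genes, 3179 were called lower and 2540 higher. With quantile normalization the split was 2887 and 2958. With a mean of at least 10 there were 1639 higher calls, with fewer genes tested (9562). Leaving out 1 library gave 2306 to 3581 lower and 1574 to 3183 higher calls, the lowest higher count without *DUSP6* siRNA replicate 2. *DUSP6* ranged from −2.22 to −1.76 on leaving out 1 library. *SLC16A6* ranged from −2.87 to −2.36 over those fits and from −2.60 to −2.38 over the others. Members called lower without *SLC16A6* were 1 to 2 on leaving out 1 library and 1 with no filter, and members called higher were 0 to 1. Values that reversed were *SLC16A1* (−0.11 without scrambled replicate 2, with a range of −0.11 to 0.25 on leaving out 1 library) and *NPTN* (0.015 with quantile normalization, and 0.019 without scrambled replicate 3 in a range of −0.13 to 0.019). The cause of these shifts was not tested. With 3 libraries a group and fewer than 100 reads in each library for *SLC16A7*, *SLC16A9* and *SLC16A10*, depth limits what can be seen of the low members.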
